A study of Homo sapiens with 9 samples.

Results

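The homologous recombination and Fanconi genes were followed through 3 related human breast epithelial cell lines. They are 41 named genes, taken by symbol from the table of 62666 genes, and all 41 were found and passed the filter on low counts that left 17910 genes for testing. MCF10A is a non-tumorigenic, spontaneously immortalised mammary epithelial line. MCF10AT1 descends from MCF10A by introduction of an activated HRAS gene and serves as its premalignant derivative, and MCF10Ca1a is a tumour-forming descendant of that lineage. Polyadenylated RNA was sequenced in 3 libraries of each line, 9 in all, with a stranded kit, to study expression during breast cancer progression. All lines grew in the same medium with insulin, epidermal growth factor, hydrocortisone and cholera toxin, but MCF10AT1 received 2.5% horse serum and the other lines 5%, so serum cannot be told apart from line in any comparison with MCF10AT1. Each stage is 1 line, so a stage cannot be told apart from the history of that line. The labels do not say whether the 3 libraries came from separate cultures, and the p-values then measure the spread between these libraries, which may be technical.

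Homologous recombination repairs a broken or collapsed replication fork by copying the sister chromatid. Kinases sense the break, nucleases resect its ends, BRCA1, PALB2, BRCA2 and a set of mediators prepare the exposed strand for pairing with the sister, and helicases, a topoisomerase and structure-specific nucleases then separate the joined molecules. The Fanconi pathway deals with cross-links between the strands of DNA: a core complex with its ubiquitin-conjugating enzyme UBE2T marks the FANCI and FANCD2 pair, and the lesion is handed on to nucleases and recombination, while DNA polymerase theta, encoded by POLQ, offers an error-prone route of end joining. Many of these genes are known to be transcribed mainly in S and G2 phase under E2F and MuvB complexes, and inherited loss of several, BRCA1 and BRCA2 among them, predisposes to breast cancer.

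Promoters are shown first because so many members moved together. Of the 41 members, 37 matched an entry in the RefSeq promoter table for GRCh38.p14, which covers 250 bases before to 50 bases after a start site. FANCI, NBN, RAD54B and RMI2 had no entry. The E2F letters TTTCCCGC or TTTGGCGC, on either strand, occurred in a window of 3 members (FANCD2, XRCC2 and FANCC), or 8.11% of 37 (Wilson 95% interval 2.80% to 21.3%), against 2.75% of all 27305 genes in the table. The letters TTTGAA or TTCGAA of the cell cycle homology region (CHR), the element bound by MuvB complexes, occurred in 5 members (UBE2T, POLQ, FANCC, ATM and BRIP1), or 13.5% (5.91% to 27.98%), against 19.5% of all genes. The share of all genes lay just under the members' interval for E2F and inside it for CHR. Counted over windows, of which a gene can have several, E2F letters occurred in 3 of 50 windows of members (6.0%, 2.06% to 16.2%) against 2.27% of all, a share inside the interval. In the 200 bases nearest the start, 3 members again held E2F letters, against 1.92% of all genes, and 2 held CHR letters (5.41%), against 12.4%. Of the members described in full below, 5 hold such letters. The 4 with the most negative change in MCF10Ca1a are given here, each from 250 bases before to 10 bases after the start, 5′ to 3′ on the strand of the gene, with the matched letters in capitals.
UBE2T, chr1:202341927-202342186, minus strand: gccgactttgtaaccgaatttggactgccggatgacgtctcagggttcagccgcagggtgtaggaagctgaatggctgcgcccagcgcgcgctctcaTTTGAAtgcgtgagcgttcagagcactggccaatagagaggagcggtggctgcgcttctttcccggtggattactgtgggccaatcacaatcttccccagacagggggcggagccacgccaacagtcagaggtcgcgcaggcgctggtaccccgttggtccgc
POLQ, chr3:121545979-121546238, minus strand: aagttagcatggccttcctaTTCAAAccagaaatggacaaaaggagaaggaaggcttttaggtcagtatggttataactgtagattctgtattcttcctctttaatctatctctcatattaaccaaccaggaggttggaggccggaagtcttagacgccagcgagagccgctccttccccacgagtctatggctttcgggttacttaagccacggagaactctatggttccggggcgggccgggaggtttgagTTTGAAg
FANCD2, chr3:10026187-10026446, plus strand: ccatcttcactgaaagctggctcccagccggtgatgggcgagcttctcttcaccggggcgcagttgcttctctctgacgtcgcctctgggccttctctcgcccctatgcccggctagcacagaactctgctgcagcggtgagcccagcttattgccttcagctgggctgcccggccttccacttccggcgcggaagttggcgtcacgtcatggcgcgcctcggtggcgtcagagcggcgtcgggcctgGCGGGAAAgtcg
BRIP1, chr17:61863519-61863778, minus strand: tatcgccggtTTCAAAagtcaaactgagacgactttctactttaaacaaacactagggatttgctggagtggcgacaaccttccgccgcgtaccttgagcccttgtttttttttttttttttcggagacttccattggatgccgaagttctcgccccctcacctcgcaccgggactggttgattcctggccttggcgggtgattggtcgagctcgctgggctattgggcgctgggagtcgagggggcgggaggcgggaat
The capitals mark CHR letters in UBE2T, POLQ and BRIP1 and the E2F letters, read on the opposite strand, in FANCD2. These 4 were picked for their falls. The fifth, ATM, holds CHR letters 20 bases before its start and rose in MCF10Ca1a against MCF10A (0.31). In that comparison 41.9% of all genes tested were called lower and 39% higher. Of the 7 members with E2F or CHR letters 6 were called lower and 1 higher, with a median log2 change of -1.84. Of the 30 with neither 24 were lower and 2 higher, with a median of -1.15. Against MCF10AT1 the medians were -1.09 and -1.01. For the 3 members with E2F letters the median against MCF10A was -1.32. The split has no test. A match is a description of the letters and not of binding.

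Depth, in M (mega-counts), was 64.2 to 69.5 M per MCF10A library, 62.9 to 68.1 M for MCF10AT1 and 32.9 to 35.2 M for MCF10Ca1a. HRAS was higher in both derivatives, at 44.0 ± 5.05 TPM (a length-corrected level, SD, n = 3) in MCF10A, 98.4 ± 5.64 in MCF10AT1 and 189 ± 1.69 in MCF10Ca1a. These totals do not tell the introduced gene apart from the cells' own. The 8 epithelial markers summed to 1819 to 2524 TPM per library in MCF10A, 2736 to 3114 in MCF10AT1 and 2223 to 2305 in MCF10Ca1a. The 7 fibroblast markers summed to 6.43 to 7.23, 27.7 to 31.5 and 1.94 to 2.33 TPM in the same order, mostly DCN in MCF10AT1, and the 7 leukocyte and endothelial markers to 0.79 to 1.06, 0.82 to 1.24 and 15.7 to 20.9 TPM, mostly PECAM1 in MCF10Ca1a. Their part in the results was not tested.

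In the malignant line 34 of the 41 members were lower than in MCF10A, 3 were higher (ATM, TOP3A and SLX4) and 4 did not pass the test (ATR, RAD50, RBBP8 and FANCL). Over all genes tested, 41.9% were called lower and 39% higher. The median log2 change of the members was -1.27, which leaves 41.4% of the MCF10A level, against -0.05 over all genes. The premalignant line showed a smaller shift in the same direction: 25 members were lower than in MCF10A, 6 were higher and 10 did not pass the test, with a median of -0.21, while 31.8% of all genes were called lower and 29.8% higher. Against MCF10AT1, MCF10Ca1a had 33 members lower and 4 higher, with a median of -1.07 (40.3% and 38% of all genes). These are calls of edgeR's quasi-likelihood test at an adjusted p under 0.05 after Benjamini-Hochberg adjustment over all 17910 genes, with 3 libraries against 3, as are all gene-level adjusted p-values below. Under all 20 alternative settings run, 31 of the 34 falls in MCF10Ca1a against MCF10A kept their call (not MRE11, EME1 and FANCC), as did all 3 rises, 18 of the 25 falls and 2 of the 6 rises (RBBP8 and TOP3A) in MCF10AT1. On the TPM scale the balance of all genes differed: 38.4% of the genes called in MCF10Ca1a against MCF10AT1 were lower, against 51.5% with counts, and 63.8% against 51.6% in MCF10AT1 against MCF10A. On that scale 31 members were lower and 5 higher in MCF10Ca1a against MCF10A, 30 and 7 against MCF10AT1, and 26 and 2 in MCF10AT1 against MCF10A. Of all 17910 genes, 6172 were lower and 7550 higher there, 5104 and 8203, and 6086 and 3447, in the same order. The comparisons share control libraries and are given side by side. In bulk RNA, fewer cells expressing a gene and less RNA per cell cannot be told apart.

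**Figure D1:**
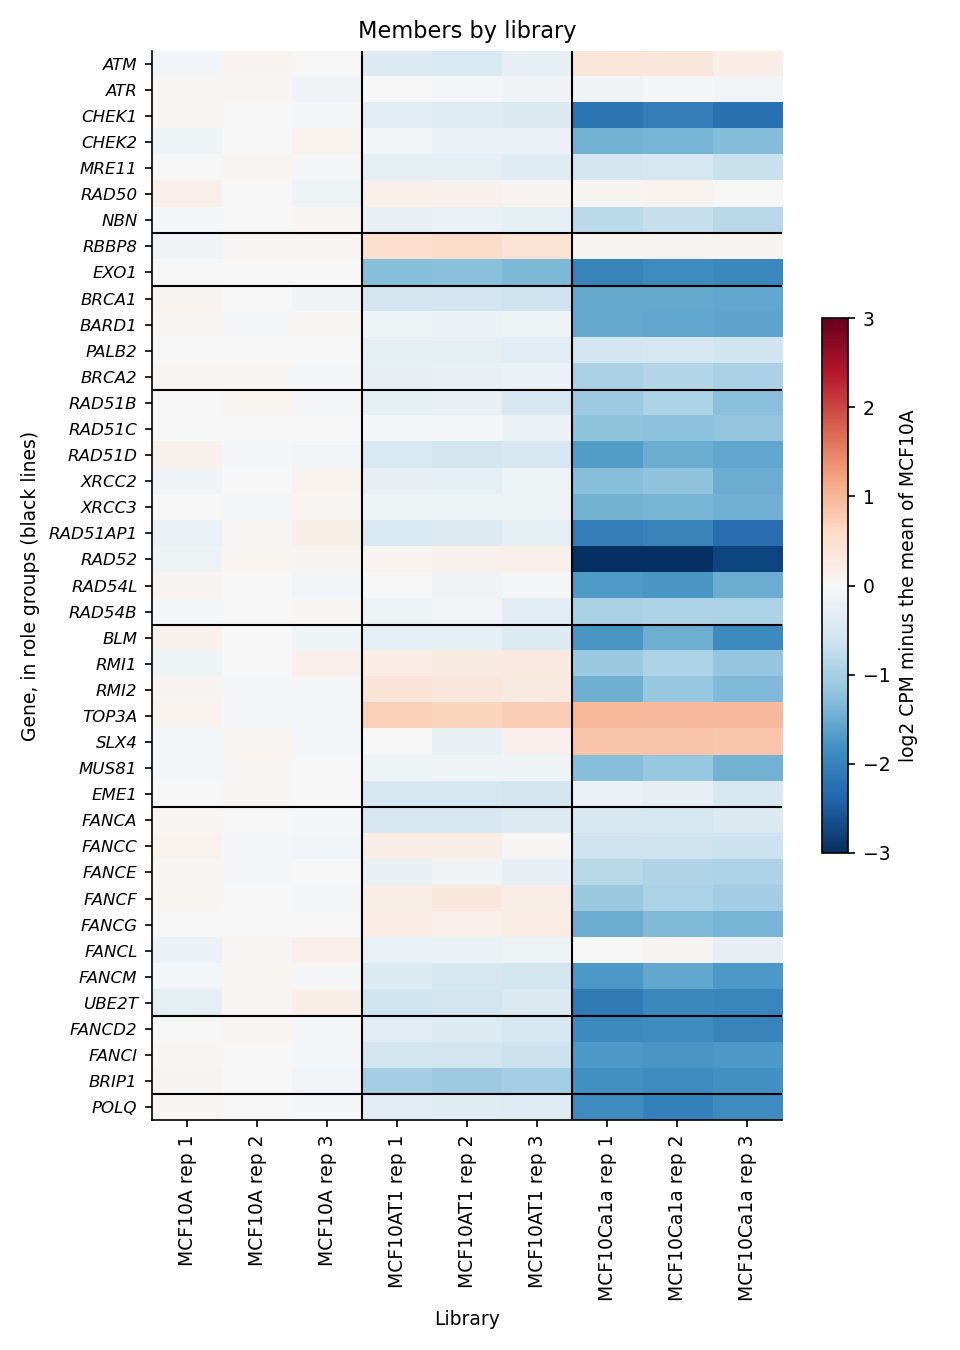
Each row is a member, grouped by role in the order of the text, and each column a library. Colour gives log2 CPM minus the mean of the 3 MCF10A libraries on a scale from -3 to 3. The MCF10Ca1a columns are blue for most members, most deeply for RAD52, and red for ATM, TOP3A and SLX4, while EXO1 and BRIP1 are already blue in MCF10AT1.

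The 2 steps of the series, MCF10A to MCF10AT1 and MCF10AT1 to MCF10Ca1a, combined into several courses. Of the 41 members, 22 were called lower at both steps, against 13% of all genes tested. Both calls were kept under all 20 alternative settings in 13 of the 22, and not in MRE11, BARD1, PALB2, RAD51B, RAD51D, XRCC2, XRCC3, RAD54B and FANCE. Another 6 did not pass the test at the first step and fell at the second (CHEK2, RAD51C, RAD52, RAD54L, MUS81 and FANCC), 14.6% of the members against 13.5% of all genes, so their number was near the background. A first-step fall was called for CHEK2 under 2 of 20 alternatives, among them leaving out MCF10A replicate 1, and for RAD51C on TPM. RBBP8, RMI1, RMI2, FANCF and FANCG rose at the first step and fell at the second, a course of 13.8% of all genes, and ATM and EME1 fell and then rose, a course of 12.7%. TOP3A rose at both steps and SLX4 at the second. FANCA fell at the first step and did not pass the test at the second, and ATR, RAD50 and FANCL passed at neither. The test of the difference between the steps called 30 members as changing more negatively at the second step and 6 more positively, against 37.3% and 31.4% of all genes. On log2(TPM + 1) the numbers were 18 and 10, or 14 and 10 without the filter, and 33.3% of the step differences called over all genes were negative, against 54.3% with counts.

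**Figure D2:**
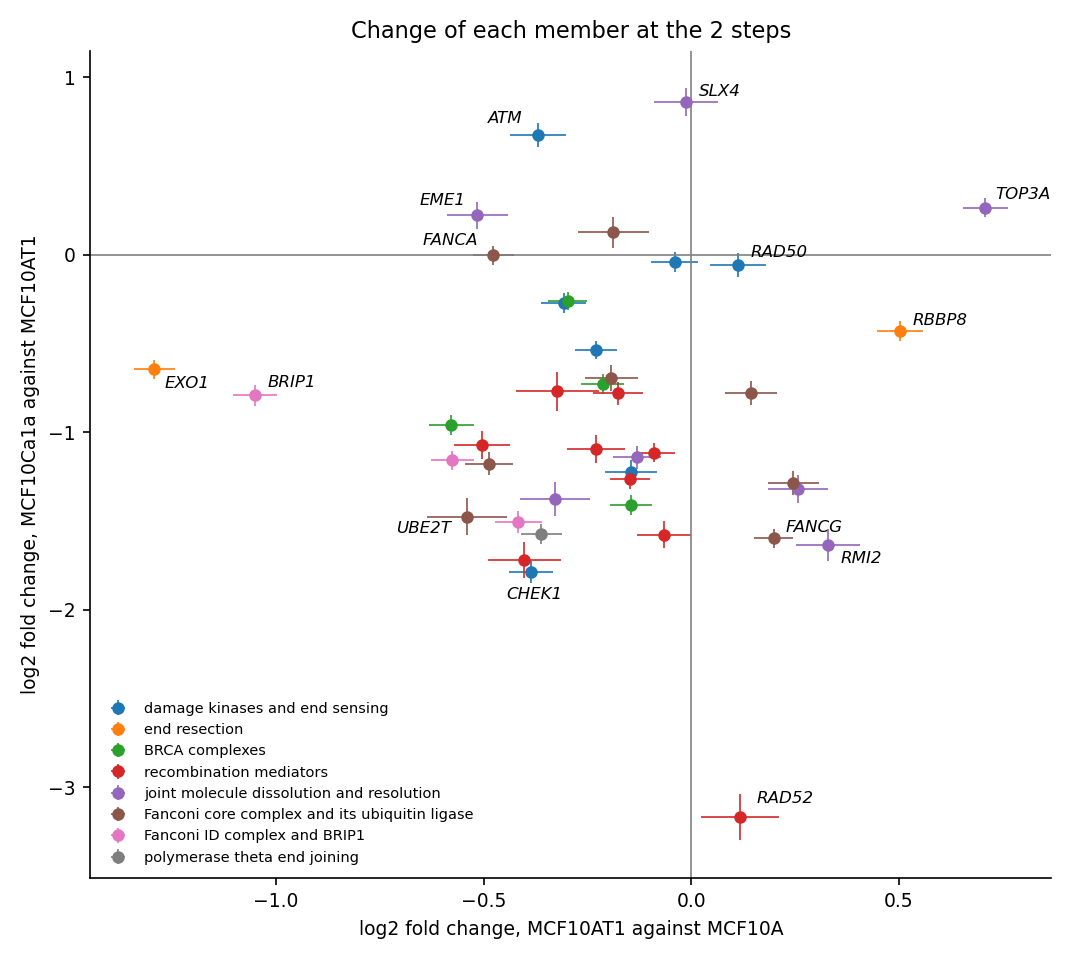
Each point is a member, coloured by role, with its log2 fold change at the first step on the x axis and at the second on the y axis and bars of 1 SE. Most points lie below 0 on both axes. EXO1 (-1.29) and BRIP1 (-1.05) stand farthest left, RAD52 (-3.17) lowest, and ATM (0.67) and SLX4 (0.86) highest.

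Values per library are given below in CPM, counts relative to the library total scaled by TMM, with replicates 1 to 3 in order, and changes as log2 fold changes. Among the kinases and end sensors, CHEK1, the effector kinase that ATR activates at stalled forks, fell most. It stood at 78.5, 75.0 and 72.1 CPM across MCF10A, 59.5, 57.9 and 55.3 across MCF10AT1 and 16.5, 17.7 and 15.9 across MCF10Ca1a. The lines did not overlap. The log2 change in MCF10AT1 against MCF10A was -0.39 ± 0.05 SE, adjusted p = 2.8e-05 and that in MCF10Ca1a against MCF10A -2.17 ± 0.06 SE, adjusted p = 5.8e-13, which left 22.2% of the MCF10A level. ATM, the apical kinase of double-strand breaks (chr11:108222484-108369102, GENCODE 29 on GRCh38), went the other way. It stood at 62.9, 69.9 and 66.3 CPM across MCF10A, 50.1, 48.0 and 56.1 across MCF10AT1 and 85.5, 84.4 and 76.2 across MCF10Ca1a, lowest in MCF10AT1 and highest in MCF10Ca1a without overlap. It fell at the first step (-0.37 ± 0.07 SE, adjusted p = 0.00032), rose at the second (0.67 ± 0.07 SE, adjusted p = 5.8e-07) and ended above MCF10A (0.31 ± 0.07 SE, adjusted p = 0.00088). RAD50, the structural ATPase of the MRN complex, stood at 221, 198 and 180.4 CPM across MCF10A, 222, 217 and 210.1 across MCF10AT1 and 210.3, 213 and 199 across MCF10Ca1a, with overlap among all lines and no change past the test (adjusted p = 0.16 and 0.46 for the derivatives against MCF10A). RAD50 was called higher than in MCF10A under 3 of 20 alternatives in MCF10AT1 and under 5 in MCF10Ca1a, among them leaving out MCF10A replicate 1 in both and TPM in MCF10Ca1a, by 0.32. Its partners in that complex both fell, the nuclease MRE11 (-0.58 ± 0.06 SE, adjusted p = 3.3e-07) and the adaptor NBN (-0.76 ± 0.05 SE, adjusted p = 7.5e-09) in MCF10Ca1a against MCF10A. MRE11 did not pass on TPM, where its change was -0.15. Its second step, called with counts (-0.27 ± 0.06 SE, adjusted p = 0.00057), was lost under 5 of 20 alternatives and was positive on TPM, at 0.21 with an adjusted p of 0.069. CHEK2, the effector kinase downstream of ATM, fell in MCF10Ca1a (-1.37 ± 0.07 SE, adjusted p = 3e-10), and ATR did not pass the test in any comparison (log2 changes of -0.04 to -0.08, adjusted p = 0.22 to 0.57), though a fall in MCF10Ca1a against MCF10A was called under 4 of 20 alternatives and a rise against MCF10AT1 on TPM, by 0.20.

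The resection genes moved in opposite directions at the first step. EXO1, a long-range resection exonuclease (chr1:241847967-241895148), stood at 80.6, 81.0 and 79.9 CPM across MCF10A, 33.2, 34.0 and 31.4 across MCF10AT1 and 20.2, 21.8 and 21.1 across MCF10Ca1a. Most of its fall was already present in the premalignant line: -1.29 ± 0.05 SE, adjusted p = 6e-11 at the first step and -0.64 ± 0.05 SE, adjusted p = 5.6e-08 at the second, a difference between steps of 0.65 ± 0.09 SE, adjusted p = 1.6e-05. RBBP8, which encodes CtIP, the activator of MRE11 in the first cuts of resection, stood at 122, 132 and 136 CPM across MCF10A, 185, 192 and 177 across MCF10AT1 and 137, 137 and 138 across MCF10Ca1a. The MCF10AT1 libraries were above all others, with a rise of 0.50 ± 0.06 SE, adjusted p = 3e-06, and the level then fell (-0.43 ± 0.06 SE, adjusted p = 7.6e-06) to a level near that of MCF10A (0.08 ± 0.06 SE, adjusted p = 0.22). Under 4 of 20 alternatives, the DESeq2 Wald test and the 3 fits on TPM, MCF10Ca1a was called higher than MCF10A, by 0.26 on log2(TPM + 1) with limma's adjusted p of 0.00051.

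All 4 genes of the BRCA complexes were lower in both derivatives, as were 31.8% of all genes in MCF10AT1 and 41.9% in MCF10Ca1a. BRCA1, the ubiquitin ligase and scaffold that favours resection, stood at 82.0, 77.8 and 72.2 CPM across MCF10A, 53.1, 52.3 and 50.1 across MCF10AT1 and 26.9, 26.8 and 26.3 across MCF10Ca1a, in 3 separate ranges (-0.58 ± 0.05 SE, adjusted p = 5.2e-07 for MCF10AT1 and -1.54 ± 0.06 SE, adjusted p = 1e-11 for MCF10Ca1a against MCF10A). BARD1, its obligate RING partner, stood at 23.9, 22.4 and 23.9 CPM across MCF10A, 21.4, 20.8 and 21.3 across MCF10AT1 and 8.10, 7.94 and 7.87 across MCF10Ca1a. The first step of BARD1 was small (-0.14 ± 0.05 SE, adjusted p = 0.022) and was lost under 6 of 20 alternative settings, among them thinning all libraries to the smallest and leaving out MCF10A replicate 3 or MCF10AT1 replicate 1 or 2, with adjusted p up to 0.14; the second was among the larger ones (-1.41 ± 0.06 SE, adjusted p = 4e-11). PALB2, the bridge between BRCA1 and BRCA2, changed least of the 4 over both steps together, though not at the first, at 42.0, 41.1 and 41.2 CPM across MCF10A, 34.0, 34.3 and 32.7 across MCF10AT1 and 27.7, 29.4 and 27.3 across MCF10Ca1a (-0.30 ± 0.05 SE, adjusted p = 9.5e-05 and then -0.26 ± 0.05 SE, adjusted p = 0.00027, the second not passing on TPM, at -0.01 and an adjusted p of 0.92 under the weakest setting). BRCA2, a recombination mediator bound by PALB2, fell in MCF10Ca1a against MCF10A (-0.94 ± 0.05 SE, adjusted p = 1.1e-09).

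All 9 recombination mediators were lower in MCF10Ca1a than in MCF10A, from -0.96 (RAD54B) to -3.05 (RAD52) on the log2 scale, with 6 already lower in MCF10AT1, where 41.9% and 31.8% of all genes were called lower. Of those 6, RAD51AP1 alone kept its call under all 20 alternatives. RAD52, a strand-annealing mediator (chr12:912077-990053), showed the largest fall of any member. It stood at 7.70, 8.87 and 9.01 CPM across MCF10A, 9.06, 9.27 and 9.46 across MCF10AT1 and 0.978, 0.832 and 1.27 across MCF10Ca1a, so the MCF10AT1 libraries lay just above those of MCF10A and MCF10Ca1a lay far below both, resting on 35, 28 and 45 estimated counts per library. The changes were 0.12 ± 0.09 SE, adjusted p = 0.29 at the first step, -3.17 ± 0.13 SE, adjusted p = 4.4e-11 at the second and -3.05 ± 0.13 SE, adjusted p = 4.7e-11 over both. On log2(TPM + 1) the change over both steps was -1.82 and with a pseudocount of 0.1 it was -2.56, both still called.

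RAD51D, a subunit of the BCDX2 complex, which acts in strand pairing, stood at 23.9, 21.2 and 20.5 CPM across MCF10A, 15.8, 14.9 and 15.5 across MCF10AT1 and 6.85, 7.79 and 7.39 across MCF10Ca1a and fell at each step (-0.50 ± 0.07 SE, adjusted p = 2e-05, then -1.07 ± 0.08 SE, adjusted p = 1.7e-08). RAD51B, of the same complex, stood at 6.71, 7.03 and 6.4 CPM across MCF10A, 5.59, 5.76 and 4.74 across MCF10AT1 and 3.16, 3.48 and 2.82 across MCF10Ca1a (-0.32 ± 0.10 SE, adjusted p = 0.012, then -0.77 ± 0.11 SE, adjusted p = 2.4e-05). Its first step was lost under 7 of 20 alternatives, among them leaving out MCF10A replicate 2 or MCF10AT1 replicate 3. RAD54B, a translocase related to RAD54L, stood at 21.3, 22.0 and 22.5 CPM across MCF10A, 19.9, 20.7 and 17.7 across MCF10AT1 and 11.1, 11.5 and 11.3 across MCF10Ca1a (-0.18 ± 0.06 SE, adjusted p = 0.021, lost under 8 of 20 alternatives, among them leaving out MCF10A replicate 2 or 3 or MCF10AT1 replicate 3; then -0.78 ± 0.07 SE, adjusted p = 8.9e-08). The other members of the group in MCF10Ca1a against MCF10A were RAD51AP1, a stimulator of strand pairing, at -2.12, RAD54L at -1.64, XRCC3 at -1.41, XRCC2 at -1.32 and RAD51C at -1.20, all with adjusted p at or under 1.4e-09. XRCC2 and XRCC3 were also called lower at the first step, XRCC2 not when MCF10AT1 replicate 1 or 2 was left out. The first step of XRCC3 was lost under 7 of 20 alternatives, with adjusted p up to 0.22: without the filter on counts or on TPM, with the length-scaled or scaled counts, in the fit on the compared lines alone, and without MCF10A replicate 3 or MCF10AT1 replicate 2.

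The genes that take joined molecules apart held the most mixed group. BLM, TOP3A, RMI1 and RMI2 encode the dissolvasome, which unlinks double Holliday junctions without crossing over. BLM, its helicase, stood at 37.8, 34.5 and 31.7 CPM across MCF10A, 28.6, 28 and 26.2 across MCF10AT1 and 10.2, 12.5 and 9.25 across MCF10Ca1a and fell at both steps (-0.33 ± 0.08 SE, adjusted p = 0.004, then -1.38 ± 0.10 SE, adjusted p = 1.1e-08). TOP3A, its topoisomerase (chr17:18271428-18315007), stood at 38.4, 34.1 and 34.1 CPM across MCF10A, 58.1, 56.7 and 59.5 across MCF10AT1 and 70.3, 69.4 and 69.8 across MCF10Ca1a, in 3 rising ranges (0.71 ± 0.05 SE, adjusted p = 7.3e-08, then 0.27 ± 0.05 SE, adjusted p = 0.00043). On log2(TPM + 1) the steps were 0.51 and 0.65, both called, and the difference between them, called with counts, did not pass on TPM (adjusted p up to 0.62). RMI1 and RMI2, the scaffold subunits, rose and then fell. RMI1 stood at 32.1, 34.8 and 39.4 CPM across MCF10A, 41.2, 42.5 and 43.3 across MCF10AT1 and 16.4, 18.6 and 15.9 across MCF10Ca1a (0.26 ± 0.07 SE, adjusted p = 0.0073, then -1.32 ± 0.08 SE, adjusted p = 2.2e-09). RMI2 stood at 10.0, 9.35 and 9.15 CPM across MCF10A, 12.4, 12.1 and 11.4 across MCF10AT1 and 3.47, 4.31 and 3.81 across MCF10Ca1a (0.33 ± 0.08 SE, adjusted p = 0.0022, then -1.63 ± 0.09 SE, adjusted p = 9e-10). The MCF10AT1 libraries of both genes lay above those of MCF10A and the MCF10Ca1a libraries below. The first-step rise of both did not pass on TPM, with adjusted p up to 0.20 and 0.18.

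The resolvases also divided. SLX4, the scaffold of the resolving nucleases (chr16:3581181-3611598), stood at 13.3, 14.2 and 13.3 CPM across MCF10A, 13.8, 11.7 and 15 across MCF10AT1 and 24.6, 24.6 and 24.2 across MCF10Ca1a. MCF10A and MCF10AT1 overlapped (-0.01 ± 0.08 SE, adjusted p = 0.91) and MCF10Ca1a was above both (0.85 ± 0.08 SE, adjusted p = 1.8e-07 against MCF10A). EME1, the partner of the MUS81 nuclease, stood at 13.4, 14.0 and 13.5 CPM across MCF10A, 9.67, 9.63 and 9.28 across MCF10AT1 and 12.1, 11.5 and 9.79 across MCF10Ca1a. It fell at the first step (-0.51 ± 0.07 SE, adjusted p = 3.7e-05) and rose slightly at the second (0.22 ± 0.08 SE, adjusted p = 0.018). That rise was lost under 6 of 20 alternatives, among them leaving out MCF10AT1 replicate 3 or MCF10Ca1a replicate 1 or 2, with adjusted p up to 0.30, and the remaining deficit against MCF10A (-0.29 ± 0.08 SE, adjusted p = 0.003) was not called on TPM. MUS81 itself did not pass at the first step (-0.13 ± 0.06 SE, adjusted p = 0.070) and fell at the second (-1.14 ± 0.07 SE, adjusted p = 1.4e-09). A first-step fall of MUS81 was called under 3 of 20 alternatives: thinning, and leaving out MCF10A replicate 1 or MCF10Ca1a replicate 3.

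In the Fanconi core complex and its conjugating enzyme, 7 of 8 genes were lower in MCF10Ca1a than in MCF10A, as were 41.9% of all genes. UBE2T, the conjugating enzyme, was the most abundant member of all 41 in each line, at 300 TPM in MCF10A, 188 in MCF10AT1 and 77.6 in MCF10Ca1a (means of 3 libraries). Its libraries stood at 116, 146 and 162 CPM across MCF10A, 92.0, 95.5 and 104 across MCF10AT1 and 32.4, 36.4 and 36.0 across MCF10Ca1a, in separate ranges, falling at both steps (-0.54 ± 0.10 SE, adjusted p = 0.00026, then -1.47 ± 0.10 SE, adjusted p = 1.1e-08). FANCL, the ubiquitin ligase that works with UBE2T, stood at 29.1, 33.6 and 36.7 CPM across MCF10A, 28.9, 28.7 and 29.7 across MCF10AT1 and 32.7, 34.9 and 27.9 across MCF10Ca1a with all lines overlapping and no change past the test (adjusted p = 0.073, 0.54 and 0.20), though a fall in MCF10AT1 against MCF10A was called under 5 and a rise in MCF10Ca1a against MCF10AT1 under 4 of 20 alternatives. FANCF and FANCG, subunits of the core, followed the course of RMI1 and RMI2. FANCF stood at 19.1, 18.3 and 18.0 CPM across MCF10A, 21.1, 23.5 and 21.1 across MCF10AT1 and 8.50, 9.54 and 9.0 across MCF10Ca1a (0.25 ± 0.06 SE, adjusted p = 0.0031, then -1.28 ± 0.07 SE, adjusted p = 6.2e-10). FANCG stood at 36.0, 35.6 and 35.6 CPM across MCF10A, 41.6, 39.8 and 41.5 across MCF10AT1 and 12.8, 14.2 and 13.7 across MCF10Ca1a (0.20 ± 0.05 SE, adjusted p = 0.0027, then -1.60 ± 0.05 SE, adjusted p = 6.1e-12). In both, the 3 lines held separate ranges, highest in MCF10AT1. On TPM neither first-step rise was called, with adjusted p up to 0.52 and 0.43.

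Of the remaining core genes, FANCM, the translocase that anchors the complex, fell in MCF10Ca1a against MCF10A (-1.66 ± 0.07 SE, adjusted p = 2e-11), as did FANCE (-0.89 ± 0.07 SE, adjusted p = 3.7e-08) and FANCC (-0.63 ± 0.07 SE, adjusted p = 9.4e-07). At the first step FANCC was called higher under 7 of 20 alternatives, among them leaving out MCF10A replicate 1 or MCF10AT1 replicate 3. Against MCF10A, its fall in MCF10Ca1a was not called with the deposited length-scaled or scaled counts or on TPM, where its change was -0.02. FANCA, a core subunit often mutated in Fanconi anaemia, reached its lower level already in MCF10AT1 (-0.48 ± 0.05 SE, adjusted p = 1.8e-06) and stayed within overlapping ranges in MCF10Ca1a (-0.00 ± 0.05 SE, adjusted p = 0.97), though a further fall was called with the length-scaled and scaled counts (-0.21 and -0.20). FANCE was also called lower at the first step (-0.19 ± 0.06 SE, adjusted p = 0.019), but not without the filter or without MCF10AT1 replicate 1 or 3.

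The ID complex and BRIP1 fell together at both steps. FANCD2, the subunit whose ubiquitination is the classic readout of the pathway, stood at 68.1, 71.3 and 66.8 CPM across MCF10A, 54.5, 51.6 and 48.4 across MCF10AT1 and 18.4, 19.0 and 17.1 across MCF10Ca1a (-0.42 ± 0.06 SE, adjusted p = 2.2e-05, then -1.50 ± 0.06 SE, adjusted p = 4.6e-11). FANCI, its partner, stood at 157, 152 and 144 CPM across MCF10A, 103, 104 and 96.3 across MCF10AT1 and 45.4, 44.9 and 45.9 across MCF10Ca1a (-0.58 ± 0.05 SE, adjusted p = 3.7e-07, then -1.16 ± 0.05 SE, adjusted p = 1.5e-10). BRIP1, the BRCA1-associated helicase also called FANCJ, stood at 45.1, 42.6 and 40.5 CPM across MCF10A, 20.9, 20.0 and 20.9 across MCF10AT1 and 12.1, 11.5 and 12.1 across MCF10Ca1a. Like EXO1, it had fallen more at the first step (-1.05 ± 0.05 SE, adjusted p = 1.1e-09) than at the second (-0.79 ± 0.06 SE, adjusted p = 2.3e-08), with a difference between steps of 0.26 ± 0.10 SE, adjusted p = 0.029. That difference was not called without the filter, with the length-scaled or scaled counts, or without any one of MCF10A replicate 2, MCF10AT1 replicates 1, 2 and 3 and MCF10Ca1a replicates 1 and 3 (adjusted p up to 0.34). POLQ, the end-joining polymerase, stood at 37.7, 37.0 and 36.0 CPM across MCF10A, 29.4, 28.6 and 28.2 across MCF10AT1 and 9.95, 8.98 and 10.0 across MCF10Ca1a, with no overlap between lines (-0.36 ± 0.05 SE, adjusted p = 2.7e-05, then -1.57 ± 0.06 SE, adjusted p = 1.4e-11). CHEK2, FANCD2 and BRCA1 have pseudogene copies, so their levels are uncertain where reads were divided among near-identical sequences.

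Levels per length were compared with the deposited TPM. The median member stood at 15.6 TPM in MCF10A, 14.8 in MCF10AT1 and 9.52 in MCF10Ca1a, and 32, 27 and 19 members reached 10 TPM. SLX4 was the lowest member in MCF10A (2.32 TPM) and MCF10AT1 (2.13), and RAD52 in MCF10Ca1a (0.94). No member was at or under 3 counts in all libraries of a line. All 33 second-step falls called with counts were smaller on log2(TPM + 1), with a median of -0.72 in place of -1.16, and 30 of them were still called there (not MRE11, PALB2 and FANCC). The added 1 itself makes changes smaller, most of all for genes at low TPM. In MCF10Ca1a against MCF10A, 40 of 41 members had a log2(TPM + 1) change above their count change, by a median of 0.27. The median change of all genes was also higher on that scale, at 0.06 against -0.05 with counts. The share of all genes with such a shift was not counted. Among the second steps, NBN was at -0.19, EXO1 at -0.29, BRIP1 at -0.45, BLM was at -0.62, MUS81 at -0.53, RAD54L at -0.91, FANCG at -1.01 and POLQ at -0.99, against count changes of -0.54, -0.64, -0.79, -1.38, -1.14, -1.58, -1.60 and -1.57.

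Partners within a complex did not all keep constant ratios. The TPM ratio of TOP3A to BLM was 0.77 ± 0.05 (SD, n = 3) in MCF10A, 1.65 ± 0.11 in MCF10AT1 and 4.36 ± 0.50 in MCF10Ca1a, with no overlap. That of RAD50 to NBN was 1.01 ± 0.14, 1.37 ± 0.03 and 1.86 ± 0.02, again in separate ranges. FANCI to FANCD2 moved less, at 2.69 ± 0.13, 2.57 ± 0.20 and 3.31 ± 0.46, with MCF10A and MCF10AT1 overlapping. MUS81 to EME1 was 1.92 ± 0.28, 2.44 ± 0.49 and 1.21 ± 0.15, so MCF10Ca1a lay below the other lines. BRCA2 to PALB2 was 0.40 ± 0.03 and 0.41 ± 0.02 in the first 2 lines and 0.30 ± 0.01 in MCF10Ca1a. In the same order of lines, RAD50 to MRE11 was 1.84 ± 0.19, 2.51 ± 0.19 and 2.56 ± 0.11, with MCF10AT1 and MCF10Ca1a overlapping. BRCA1 to BARD1 was 2.12 ± 0.27, 1.77 ± 0.10 and 2.32 ± 0.08, with MCF10A and MCF10Ca1a overlapping. RMI1 to RMI2 was 1.71 ± 0.26, 1.62 ± 0.07 and 2.07 ± 0.07, with MCF10A and MCF10AT1 overlapping. These ratios are descriptions without a test.

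The level of ATM on the TPM scale depended in part on 1 transcript, singled out after its values were seen. On the TPM scale ATM stood at 9.73, 11.7 and 11.0 in MCF10A and at 27.6, 28.4 and 31.8 in MCF10Ca1a, a log2(TPM + 1) change of 1.36, where the counts gave 0.31. In MCF10Ca1a the transcript ENST00000683914.1 received 43.9, 42.7 and 61.5 estimated counts, 1.74% of those of the gene, yet 9.69, 9.98 and 13.6 TPM, 37.8% of its TPM. It was at 0 counts in the other 6 libraries. Without it, ATM stood at 17.9, 18.4 and 18.2 TPM in MCF10Ca1a, still above MCF10A. In RAD52 the transcript ENST00000542297.1 likewise held 4.24% of the counts and 27.3% of the TPM in MCF10AT1.

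The mix of transcripts was tested as the share of each transcript among the counts of its gene, with limma and a Simes p per gene adjusted over 11984 genes. Changed usage was called for 3 of 40 members in MCF10AT1 against MCF10A (7.5%), 18 in MCF10Ca1a against MCF10A (45%) and 17 in MCF10Ca1a against MCF10AT1 (42.5%). Over all genes the shares were 9.21%, 48.3% and 40.4%, so the members were near the background in this setting. Over alternatives that kept all libraries, 2 to 4, 16 to 27 and 13 to 19 members were called. With a library left out the counts were 3 to 6, 16 to 22 and 13 to 19. The shares of all genes were not taken there. FANCF could not be tested, the limits given for counts of 0 (3 counts of the total) cover counting error only, and the shares carry no allowance for how surely reads were assigned to transcripts.

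RAD51B, BLM and RBBP8 had the smallest p-values. RAD51B-202 (ENST00000460526.5), a processed transcript without a coding annotation, took 12.1%, 13.2% and 11.8% of the RAD51B counts in MCF10A and 12.2%, 8.73% and 10.1% in MCF10AT1. It was at 0 counts in all MCF10Ca1a libraries, where the whole gene had 113, 117 and 100 counts, so that a count of 0 allows a share of up to 3.0% (adjusted p = 9.9e-06 against MCF10A). BLM-203 (ENST00000558825.5), a retained-intron transcript, was at 0 in the 6 libraries of the other lines, which allows up to 0.184%, and took 9.63%, 13.2% and 18.0% in MCF10Ca1a, on 35.2, 55.4 and 58.9 counts (adjusted p = 1.6e-05 against MCF10A). RBBP8-212 (ENST00000582354.5), annotated as coding, was absent from the MCF10A counts (0 in each library, which allows up to 0.0385%), received 199, 169 and 136 counts in the MCF10AT1 libraries and 27, 61.4 and 32.2 in those of MCF10Ca1a, at most 1.61% of the gene in any library (adjusted p = 0.00027 for MCF10AT1 and 0.00011 for MCF10Ca1a against MCF10A).

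Larger shares moved in RAD50 and FANCC, which were chosen after their values were seen. The total of RAD50 did not pass the test in any comparison, but its coding transcript RAD50-201 (ENST00000378823.8) held 39.5%, 39.5% and 40.4% in MCF10A, 36.3%, 35.7% and 35.6% in MCF10AT1, then 18.2%, 18.7% and 19.0% in MCF10Ca1a. RAD50-209 (ENST00000533482.5), annotated as a target of nonsense-mediated decay, held 54.8%, 55.3% and 53.8%, then 56.6%, 56.7% and 56.2%, then 70.6%, 72.4% and 73.8% (adjusted p for the gene 0.00011 in MCF10Ca1a against MCF10A). FANCC-201 (ENST00000289081.8), a coding transcript, held 82.0%, 85.0% and 85.0% in MCF10A, 65.6%, 69.3% and 67.0% in MCF10AT1, then 62.7%, 64.8% and 68.1% in MCF10Ca1a (adjusted p for the gene 0.003 in MCF10AT1 against MCF10A).

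**Figure D3:**
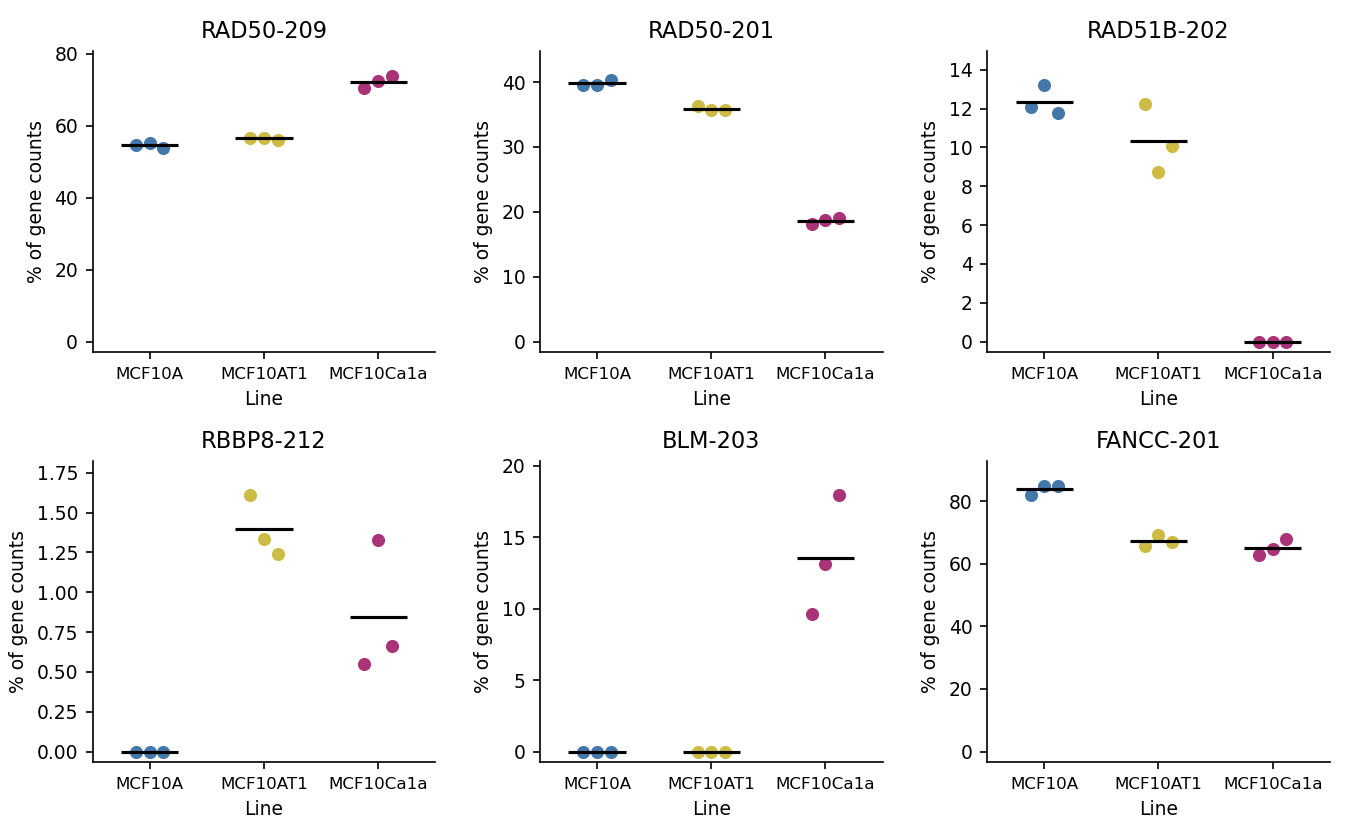
Each panel is 1 transcript, with its share of the counts of its gene in percent on the y axis, 1 point per library and a bar at the mean of 3. RAD50-201 falls to about 19.0% in MCF10Ca1a while RAD50-209 reaches 73.8%. RAD51B-202 is at 0 in MCF10Ca1a, BLM-203 appears there alone, RBBP8-212 is at 0 in MCF10A, and FANCC-201 is lower in both derivatives.

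Genes of the cell cycle moved with the members. The 17 members known to peak in S or G2 phase were all called lower in the malignant line against MCF10A (median log2 change -1.70), against 41.9% of all genes. EME1 was not called on TPM. Of the other 24, 17 were lower and 3 higher, with a median of -0.96. With counts, all 30 genes of DNA replication and S phase were lower, with a median of -1.33, from TYMS, thymidylate synthase (-2.97), to RFC4, a clamp-loader subunit (-0.17). On mean TPM 29 of the 30 were lower, with RFC4 at 72.1 in MCF10A and 76.9 in MCF10Ca1a. All 25 mitotic genes were lower, with a median of -2.50, from CENPF, a kinetochore protein (-3.77), to TPX2, a spindle assembly factor (-1.55). Of the 21 E2F, RB and MuvB regulators 17 were lower and 3 higher, with a median of -0.59. FOXM1, the transcription factor of G2 genes, was at -2.69 and LIN37, a MuvB subunit, at 1.66. The part of cell cycle activity in the members' falls was not tested.

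Other repair genes gave smaller medians in MCF10Ca1a against MCF10A, where 41.9% of all genes were called lower and 39% higher. Of 47 further recombination and Fanconi genes 30 were lower and 10 higher, with a median of -0.53. TONSL, which directs recombination at stalled forks, was at -2.81 and SWI5, a recombination cofactor, at 1.72. Of 18 genes of non-homologous end joining 11 were lower and 7 higher, with a median of -0.34, from SHLD3 (-1.26) to MAD2L2 (1.42), both subunits of shieldin, which limits resection. Of 7 mismatch repair genes 2 were lower and 1 higher, with a median of -0.01, and MSH3 was highest (0.16). Of 21 nucleotide excision repair genes 9 were lower and 10 higher, with a median of -0.10, from the damage sensor DDB2 (-2.68) to the helicase ERCC2 (0.94). In MCF10AT1 against MCF10A the medians were -0.40 for the members of S and G2 phase, -0.14 for the other members, -0.19 for replication, -0.43 for mitosis, -0.15 for the further recombination genes, 0.08 for end joining, -0.04 for mismatch repair and 0.20 for excision repair.

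**Figure D4:**
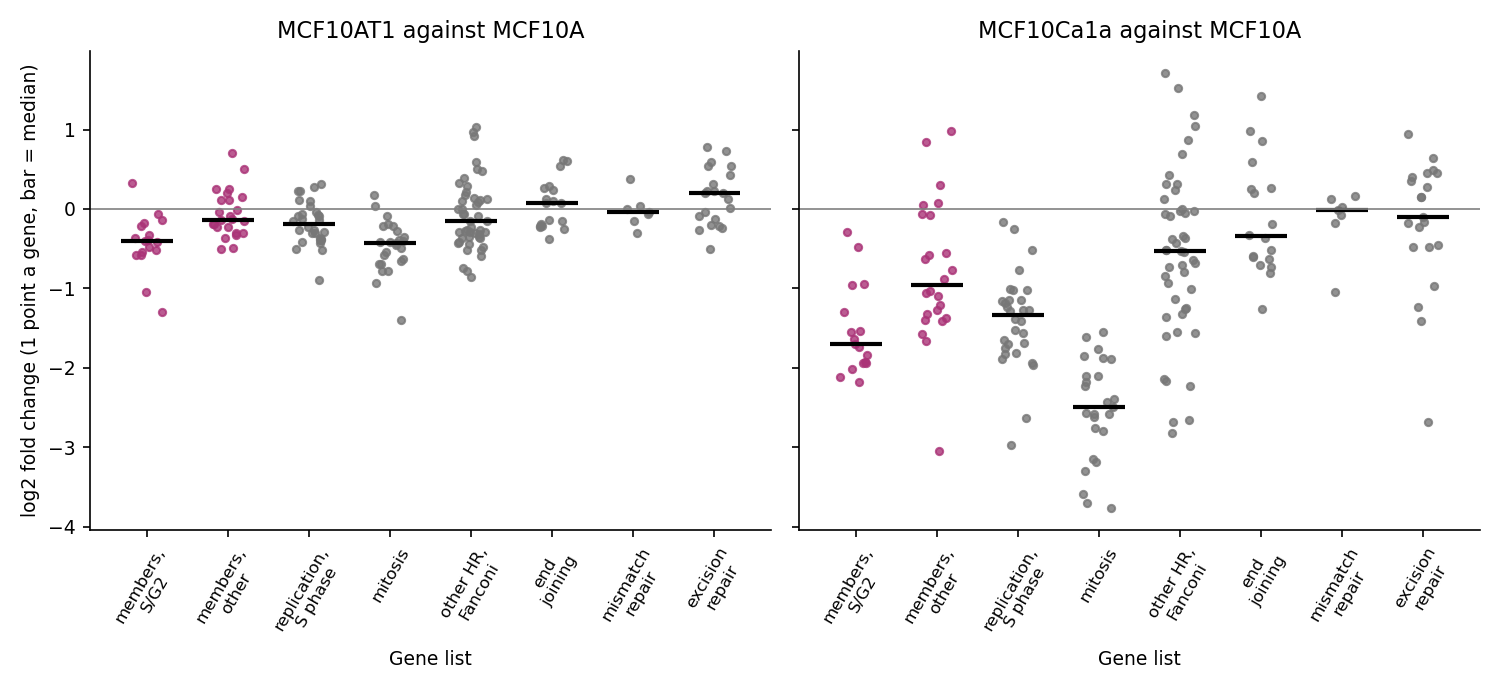
Each point is a gene and each bar the median of its list, with the log2 fold change on the y axis, for MCF10AT1 (left) and MCF10Ca1a (right) against MCF10A. The members are in purple and the other lists in grey. On the right the members of S and G2 phase (-1.70) lie between replication (-1.33) and mitosis (-2.50), while mismatch repair (-0.01) and excision repair (-0.10) stay near 0.

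Neighbouring genes place the change of each member beside that of its region. For each member, the median log2 change of the tested genes within 1000 kb was taken. In MCF10Ca1a against MCF10A, 40 of 41 members lay below the median of their neighbours, SLX4 being the exception, and the medians of the neighbourhoods centred on 0.08, against -1.27 for the members. TOP3A lay in a neighbourhood of 35 genes that was itself higher, with a median of 0.81 in MCF10AT1 and 1.15 in MCF10Ca1a against MCF10A, and 15 of the 35 changed less than TOP3A or fell in each comparison. SLX4 rose among 63 neighbours with a median of 0.02. The 12 neighbours of ATM had a median of 0.31 in MCF10Ca1a against MCF10A, the same as ATM itself. BRCA2 (8 neighbours, median -0.90) and MRE11 (20, -0.57) changed by about as much as their neighbours, at -0.94 and -0.58. EXO1 (7 neighbours, median -1.04), RAD51AP1 (12, -0.89) and RAD52 (13, -0.74) had neighbours that were lower as well, although 2, 4 and 2 of them changed more negatively than the member. DNA copy number was not analysed here, and the part of regional change in these values was not tested.

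**Figure D5:**
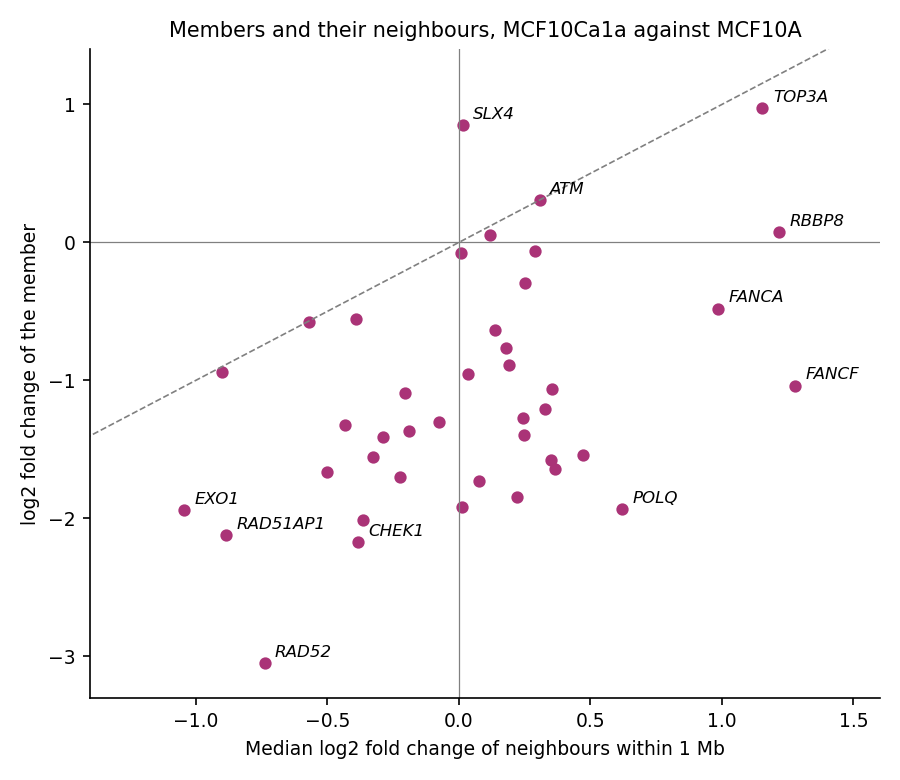
Each point is a member in MCF10Ca1a against MCF10A, with the median log2 change of its neighbours within 1000 kb on the x axis and its own on the y axis. The dashed line marks equal values. All points but SLX4 lie below or almost on the line. TOP3A (0.98 against 1.15), ATM (0.31 against 0.31), BRCA2 (-0.94 against -0.90) and MRE11 (-0.58 against -0.57) lie near it, and RAD52 (-3.05 against -0.74) far under it.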

How the data were processed

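Libraries of polyadenylated RNA, 3 for each of the 3 lines, were measured. The authors deposited estimated counts per gene and per transcript, length-scaled and scaled counts per gene, and TPM per gene and per transcript, per the file headers; the submitters' processing notes name Salmon and hg38. The annotation and whether the quantification used strand are not given in the sources used here. The deposited estimated counts were rounded, genes were filtered with filterByExpr (minimum count 10, minimum total 15), and 9 libraries entered 1 edgeR 4.0.16 quasi-likelihood fit with TMM in R 4.3.3. SEs are the log2 fold change divided by the root of F. Transcript shares (mean of at least 10 counts, 0.5 counts added) were tested with limma 3.58.1. The deposited TPM served for levels between genes and, on log2(TPM + 1), as an alternative. Depth was 32.9 to 69.5 M (mega-counts) per library, and RAD52 rested on 28 to 45 counts in MCF10Ca1a. Positions came from GENCODE 29 (95.9% of tested genes matched). Tests were also run on simulated data with a fixed spread and few changed genes. The outcome is not given here, and it does not show how the tests behave on these data.

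The text gives full values for the members with the most negative and most positive change of each role group in each comparison and for those that changed in opposite directions at the 2 steps, the 3 members with the smallest usage p-values, the extremes of each other list in MCF10Ca1a against MCF10A, and the promoters of at most 4 such members, those with the most negative change that hold a motif, outside chromosome 8. One such extreme is not reported here. Members and lists were chosen with earlier results of these data known. Alternatives were DESeq2 1.42.0 size factors and its Wald test, no filter, the length-scaled and scaled counts, TPM with a pseudocount of 1 or 0.1, thinning, a replicate block, fits on the compared lines alone, and leaving out single libraries. Of 48 further recombination genes listed, 47 were in the table.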

Additional observations from a re-analysis of the deposited data

How the results depend on the processing

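The median change of the members stayed negative in each comparison under every alternative run. On log2(TPM + 1) the second step of MRE11 went from a called -0.27 to 0.21, not called, and ATR, RAD50 and FANCL, not called with counts, were called higher there (0.20, 0.24 and 0.40). Over all genes, the calls at that step went from 7226 lower and 6808 higher to 5104 and 8203, and their median from -0.04 to 0.13. On log2(TPM + 1), filtered or not, and log2(TPM + 0.1), the members called higher numbered 2, 2 and 2 in MCF10AT1 against MCF10A and 5, 5 and 5 in MCF10Ca1a against MCF10A, and 7 and 7 in MCF10Ca1a against MCF10AT1 with the filter. The median log2 change was then -0.32, -0.32 and -0.35 in MCF10AT1 against MCF10A, -0.87, -0.87 and -0.92 in MCF10Ca1a against MCF10A, and -0.62, -0.62 and -0.71 in MCF10Ca1a against MCF10AT1, while the median of all genes reached 0.21 in the last. Length-scaled and scaled counts gave medians of -1.09 and -1.08 in MCF10Ca1a against MCF10A and -1.01 and -1.0 against MCF10AT1, no filter gave -1.35 and -1.16, and DESeq2 size factors and the Wald test gave -1.02 and -1.02 against MCF10AT1. The cause was not tested.

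Leaving out each library in turn gave 22 to 28 members lower and 6 to 8 higher in MCF10AT1 against MCF10A, 34 to 35 and 3 to 4 in MCF10Ca1a against MCF10A, and 33 to 33 and 3 to 5 in MCF10Ca1a against MCF10AT1. Medians ran from -0.26 to -0.20, from -1.34 to -1.22 and from -1.11 to -1.02. Changed transcript usage was called for 3 to 6, 16 to 22 and 13 to 19 members in the same order; the 6 came without MCF10A replicate 1 and without MCF10AT1 replicate 1.

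Over all genes tested, same-numbered libraries did not deviate together: the 9 correlations ran from -0.06 to 0.05. The labels give these libraries only a shared number. Correlations over all genes cannot show whether they also share a culture or a preparation. With the replicate number as a block, members lower and higher numbered 25 and 7 in MCF10AT1 against MCF10A, 34 and 3 in MCF10Ca1a against MCF10A, and 33 and 4 in MCF10Ca1a against MCF10AT1, with medians of -0.21, -1.27 and -1.07. The block called 36 step differences and 2, 16 and 14 members with changed usage. Over the alternatives that kept all libraries, 24 to 36 step differences were called, fewest on unfiltered TPM, and changed usage in MCF10Ca1a against MCF10A was called for up to 27 members, with a pseudocount of 5, and 24 on transcript TPM. The share of all genes with changed usage was taken in the main setting only. The usage counts under other settings therefore have no background beside them.

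RAD52 and the transcript shares of RAD51B, BLM and RBBP8 rest on few counts in MCF10Ca1a.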
